A study of Mus musculus with 16 samples.

Results

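The genes described here are 10 genes of the sebaceous gland, chosen by name as genes of sebocytes and matched by Ensembl identifier: Scd1, Scd3, Fasn, Elovl3, Awat1, Awat2, Far2, Plin2, Krt79 and Mgst1. They are 10 of the 45706 genes in the table. Ear clips came from 8 males of the inbred strain C57Bl/6J, and their RNA was sequenced. The first ear was clipped at 24 months and the other at 30 months, which gave 16 libraries in 8 pairs and lets the ages be compared within an animal. The labels call the first age young and the second old, although both fall late in the life of a mouse, and give ages of 23.8 to 24.4 and 29.0 to 30.1 months, 5.0 to 6.3 months apart within a mouse. The labels name no treatment and no introduced allele. The second ear was always the later one, so age and the order of the ears cannot be told apart. Mice are named by their numbers (13, 14, 21, 29, 43, 50, 64 and 75).

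Sebaceous glands are lobes of cells attached to hair follicles. Their cells, the sebocytes, fill with lipid droplets as they mature and then burst, so that the whole cell becomes sebum, the oily film of skin and hair. Sebum of the mouse is rich in wax esters, which are made by building a fatty acid, lengthening and desaturating it, reducing part of it to a fatty alcohol and joining acid and alcohol. The 10 genes follow that order. Fasn, fatty acid synthase, builds saturated fatty acids, and Scd1 and Scd3, stearoyl-CoA desaturases, place a double bond in them. Elovl3 lengthens them, Far2 reduces them to fatty alcohols, and Awat1 and Awat2 are acyl-CoA wax alcohol acyltransferases, which form the ester. Plin2 coats lipid droplets, Krt79 is a keratin of the duct and upper hair follicle, and Mgst1 is a microsomal glutathione S-transferase.

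On GRCm38, Scd1 (chr19:44394455-44407879, minus strand), Scd3 (chr19:44203269-44244016, plus strand) and Elovl3 (chr19:46131897-46135694, plus strand) share chromosome 19, and Awat1 (chrX:100572251-100578205, plus strand) and Awat2 (chrX:100402221-100442717, minus strand) lie on the X chromosome. Far2 (chr6:148047259-148182758, plus strand) and Mgst1 (chr6:138140316-138156755, plus strand) are on chromosome 6. Fasn is at chr11:120805846-120824547, Plin2 at chr4:86648386-86670060 and Krt79 at chr15:101929332-101940324, all on the minus strand. The annotation lists each of the 10 as protein coding.

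RefSeq start regions of GRCm38.p6, from 250 bases before to 50 after the start, matched 8 of the 10 genes, with 2 regions each for Awat2 and Mgst1. They were searched on both strands for the E-box CACGTG, a sterol regulatory element TCACNCCAC, the CCAAT box CCAAT, the TATA box TATAAA and the PPAR direct repeat, AGGTCA 2 times in a row with any base between. Of all 32851 such regions, 7.15% held the E-box, 1.24% the sterol element, 37.4% a CCAAT box, 13.6% the TATA box and 0.0396% the direct repeat. The start regions of the droplet gene, of the synthase and of both acyltransferases are shown, because these are the matched genes whose regions held any of the motifs, and because Plin2 and Awat2 stand apart in the 30-month library of mouse 29. Capitals mark motif matches, and ATTGG is CCAAT on the other strand.
Plin2 (chr4:86670010-86670309, minus strand): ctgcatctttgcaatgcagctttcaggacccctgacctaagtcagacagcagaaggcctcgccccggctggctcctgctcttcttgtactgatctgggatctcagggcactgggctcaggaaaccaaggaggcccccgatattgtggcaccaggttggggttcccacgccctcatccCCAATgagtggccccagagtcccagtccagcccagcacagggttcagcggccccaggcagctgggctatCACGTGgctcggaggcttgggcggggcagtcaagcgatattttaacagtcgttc
Fasn (chr11:120824498-120824797, minus strand): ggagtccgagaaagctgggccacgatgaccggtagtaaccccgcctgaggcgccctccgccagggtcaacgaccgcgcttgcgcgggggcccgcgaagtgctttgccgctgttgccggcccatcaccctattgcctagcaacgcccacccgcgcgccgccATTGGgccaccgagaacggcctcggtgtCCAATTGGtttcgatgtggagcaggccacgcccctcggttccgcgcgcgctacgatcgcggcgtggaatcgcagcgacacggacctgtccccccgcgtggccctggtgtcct
Awat1 (chrX:100571997-100572296, plus strand): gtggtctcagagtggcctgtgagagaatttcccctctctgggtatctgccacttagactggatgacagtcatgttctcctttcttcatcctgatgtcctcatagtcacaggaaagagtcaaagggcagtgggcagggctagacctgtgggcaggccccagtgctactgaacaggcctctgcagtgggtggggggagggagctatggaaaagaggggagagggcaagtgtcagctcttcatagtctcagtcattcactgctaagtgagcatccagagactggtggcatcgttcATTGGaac
Awat2 (chrX:100442668-100442967, minus strand): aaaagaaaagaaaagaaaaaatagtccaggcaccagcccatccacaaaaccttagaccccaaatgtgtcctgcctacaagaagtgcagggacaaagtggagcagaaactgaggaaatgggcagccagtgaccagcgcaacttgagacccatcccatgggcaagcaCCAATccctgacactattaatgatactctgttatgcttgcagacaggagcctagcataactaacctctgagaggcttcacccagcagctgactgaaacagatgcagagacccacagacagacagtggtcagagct

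The E-box occurred in Plin2, where it begins at position -4 from the start, beside a CCAAT box at -73. Fasn held 3 CCAAT matches, at -90, -62 and -59, of which the last pair overlaps. Awat1 had a CCAAT match 43 bases past the start. Awat2 had one at -85 in the region shown and one at -121, on the other strand, in its other region. No match to these letters lay in the regions of Scd3, Far2, Krt79 and Mgst1. A match is a description of these letters and was not tied to any measured binding.

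Reads were 50 bases long, so genes with near copies can lose or share reads. In the longest transcripts, 4.85% of the 50-base stretches of Scd3 also occur in Scd1, and 6.37% in any of Scd1, Scd2 and Scd4. For Scd1, 4.66% of stretches occur in Scd2, Scd3 or Scd4. The longest identical run of the coding sequences of Scd1 and Scd3 is 185 bases. A 60-base part of it, bases 463 to 522 of the Scd1 coding sequence and 475 to 534 of that of Scd3, is shown because reads from it cannot be told apart. It has 0 differences, so no base is in capitals.
Scd1 and Scd3: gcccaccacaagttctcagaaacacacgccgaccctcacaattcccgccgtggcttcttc

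None of the 50-base stretches of Awat1 occurs in Awat2, none of Awat2 in its neighbour in function Dgat2l6, and none of Far2 in Far1. The library kit does not keep strand, so reads of Elovl3 and of Far2 cannot be told apart from those of overlapping genes on the other strand. Pitx3, which overlaps Elovl3, had 0.295 to 1.23 CPM (counts per 1000000 counts on genes, with library sizes scaled by TMM), and Ergic2, which overlaps Far2, had 30.5 to 42.3 CPM. The other overlapping gene of Far2, Far2os2, did not exceed 0.0357 CPM.

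The reads on genes numbered 22967222 to 36162431 in a library. Each of the 10 genes was counted in each library, from 108 to 635 reads for Awat2 up to 91833 to 197386 reads for Scd1. Of 21526 genes tested, 0 passed an adjusted p of 0.05 between the ages with edgeR's quasi-likelihood test, 2593 had an unadjusted p under 0.05, and DESeq2 called 77 higher and 151 lower genes, none of them among the 10. Libraries that stood apart most were those of mice 50 and 29 at 30 months. Mouse 50 had 488 genes over 2-fold above all other libraries, and mouse 29 had 260 as far above and 334 as far below. Mouse 75 at 24 months had 81 genes as far above. Mouse 43 had 13 such genes at 24 months and 1 at 30 months. Mice 29 and 43, whose libraries stand apart in the genes described here, were also left out together.

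All 12 sebocyte markers outside the 10 genes were counted in each library, with a sum of 2854 to 5219 CPM. How much of that sum came from sebocytes was not tested. Elovl4 (919 to 2291 CPM), Elovl6 (677.5 to 1496 CPM) and Acsbg1 (356 to 1038 CPM) weighed most in that sum. Mc5r, the melanocortin receptor of sebocytes, had 2.58 to 9.32 CPM, and Pparg, the nuclear receptor of fat cell and sebocyte differentiation, had 14.4 to 42.2 CPM. Markers of other tissues were present too. Skeletal muscle genes summed to 991 to 12140 CPM and 12 white fat cell genes to 316 to 1483 CPM. Ucp1, which defines brown fat, was near 0 (0.0645 to 0.683 CPM).

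On a scale of CPM per kilobase of exon (RPKM), which allows genes to be compared, Scd1 was the most abundant of the 10, with a median level of 922 RPKM over the 16 libraries (589 to 1502). Its reads were 0.276% to 0.734% of all reads counted on genes. Its lowest library lay above the highest library of any of the others. Mgst1 followed with a median of 133 RPKM, then Krt79 with 125, Elovl3 with 101, Far2 with 70.9, Awat1 with 48.9, Fasn with 42.3 and Plin2 with 37.3. The ranges of neighbours in this run overlapped, so that the order within it is not fixed by these libraries, although Elovl3 exceeded Far2 in 16 of 16 libraries and Awat1 exceeded Fasn in 9. Scd3, at 9.99 RPKM (7.51 to 18.7), lay below every library of Plin2. Awat2 was the least abundant, at 2.39 RPKM (1.86 to 10.3), and its range overlapped that of Scd3.

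The desaturase Scd1 exceeded Scd3, its neighbour on chromosome 19, by 68.9- to 116-fold in RPKM (median 84.9). Of the 50-base stretches of Scd1, 3.49% also occur in Scd3. The level of Scd3 and this ratio can therefore depend on how shared reads were assigned, which was not tested. The wax synthase Awat1 exceeded Awat2 by its median of 48.9 against 2.39 RPKM.

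Between 24 and 30 months the average change of none of the 10 genes passed the test. With a term for each mouse, 0 of 10 passed the adjusted threshold (0% of all genes tested) and 0 of 10 the unadjusted one (12% of all genes, 4.86% higher and 7.18% lower). Their median log2 fold change was 0.097, beside 0.007 over all genes tested, and -0.085 without mouse 43. In bulk tissue, fewer sebocytes and less of these RNAs per sebocyte cannot be told apart. Adjusted p-values are Benjamini-Hochberg values over all genes tested.

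Fasn, the first enzyme of the path, had 341 CPM in the lowest library at 24 months, a median of 472 and 656 in the highest. At 30 months it had 369, 449.8 and 710.3 CPM. The ranges overlapped over most of their length, and 3 of 8 mice were higher at 30 months. On the log2 scale the change was -0.024 ± 0.167 (SE, adjusted p = 0.962), with a 95% interval of 0.761- to 1.27-fold.

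Scd1 had 2883, 4349 and 6439 CPM (lowest, median, highest) at 24 months and 3747, 4512 and 7346 CPM at 30 months. Both extremes, the lowest at 24 and the highest at 30 months, came from mouse 43, and 4 of 8 mice were higher at 30 months. The group means were 4715 ± 1159 and 4889 ± 1199 CPM (SD, n = 8), and the log2 fold change was 0.051 ± 0.198 (SE, adjusted p = 0.930), or 0.765- to 1.40-fold. It was -0.12 without mouse 43 and -0.029 without mice 29 and 43.

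Scd3 had 26.7, 43.2 and 54.8 CPM at 24 months and 27.3, 32.6 and 66.5 CPM at 30 months. It was lower at 30 months in 7 of 8 mice, a count that 14.8% of all genes tested reached in one direction or the other, and mouse 43 alone was higher. The log2 fold change was -0.21 ± 0.21 (SE, adjusted p = 0.692). Without mouse 43 it was -0.41 ± 0.12 (SE, adjusted p = 0.163). Scd3 was then the only one of the 10 with an unadjusted p under 0.05. Over all genes tested in that fit, 1927 were higher and 1845 lower at that threshold, beside 1047 and 1546 with all mice.

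Elovl3, an elongase also known from brown fat in the cold, had 88.8, 198 and 260.3 CPM at 24 months and 139, 211 and 264 CPM at 30 months. The lowest library was again mouse 43 at 24 months, and the other 7 mice started between 157 and 260 CPM. Its log2 fold change was 0.11 ± 0.19 (SE, adjusted p = 0.833), with 4 mice higher, and was -0.11 without mice 29 and 43.

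Far2, which makes fatty alcohols, had 265, 557 and 619 CPM at 24 months and 369.8, 496 and 768 CPM at 30 months. The ranges overlapped, and 3 of 8 mice were higher. On the log2 scale the change of -0.024 ± 0.218 (SE, adjusted p = 0.972) spanned 0.704- to 1.38-fold.

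Awat1 had 31.3, 66.3 and 74.3 CPM at 24 months and 48.3, 74.7 and 120.3 CPM at 30 months. At 30 months mice 29 (120.3 CPM), 43 (103 CPM), 75 (81.5 CPM) and 64 (76.2 CPM) lay above every library of 24 months, while the other 4 fell inside the younger range. The estimate was the largest of the 10, 0.32 ± 0.23 (log2, SE, adjusted p = 0.593) with 5 of 8 mice higher, and was 0.022 without mice 29 and 43.

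Awat2, the other wax synthase, was also highest in mouse 29 at 30 months. It had 3.96, 5.66 and 7.57 CPM at 24 months, and at 30 months 7 mice had 4.02 to 5.61 CPM while mouse 29 had 21.9. That library was 2.89-fold above the next highest of the 16. Its log2 fold change was 0.086 ± 0.240 (SE, adjusted p = 0.901). It was -0.15 without mouse 29 and -0.18 without mice 29 and 43.

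Plin2, which coats lipid droplets in many cell types, had 70.1, 130 and 152 CPM at 24 months and 104, 132 and 465 CPM at 30 months. Mouse 29 again gave the highest value, 2.51-fold above the next library, which was mouse 43 at 30 months with 185 CPM. The log2 fold change of 0.31 ± 0.25 (SE, adjusted p = 0.632, 4 of 8 mice higher) was 0.11 without mouse 29 and -0.091 without mice 29 and 43.

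Krt79, the keratin of the duct, had 287, 594 and 738 CPM at 24 months and 466, 595 and 992 CPM at 30 months. Mouse 43 held both ends of the range, and in the other 7 mice the change lay between -0.36 and 0.18 on the log2 scale. Its log2 fold change was 0.11 ± 0.21 (SE, adjusted p = 0.844), with 3 of 8 mice higher, and was -0.099 without mouse 43 and -0.086 without mice 29 and 43.

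Mgst1 had 173, 261 and 310.0 CPM at 24 months and 211, 289 and 377 CPM at 30 months. The ranges overlapped, and mouse 43 went from the lowest library to 317 CPM. The log2 fold change was 0.17 ± 0.14 (SE, adjusted p = 0.627), with 4 of 8 mice higher and a 95% interval of 0.912- to 1.39-fold. It was 0.079 without mouse 43 and 0.265 without mouse 13.

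**Figure D1:**
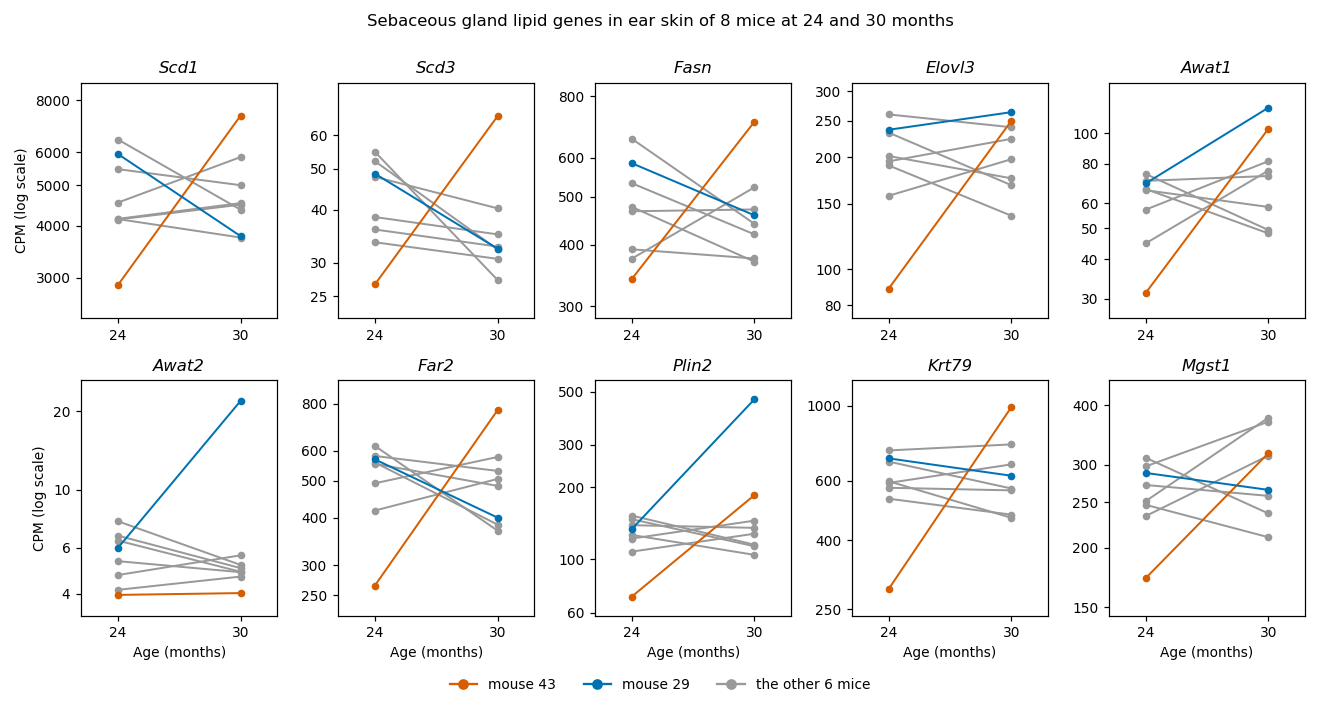
CPM on a log scale (each panel has its own range) of the 10 genes at 24 and 30 months, with a line for each of the 8 mice. Mouse 43 is lowest at 24 months in each panel, its Scd1 goes from 2883 to 7346 CPM, and mouse 29 stands apart at 30 months for Awat2 (21.9 CPM) and Plin2 (465 CPM).

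**Figure D2:**
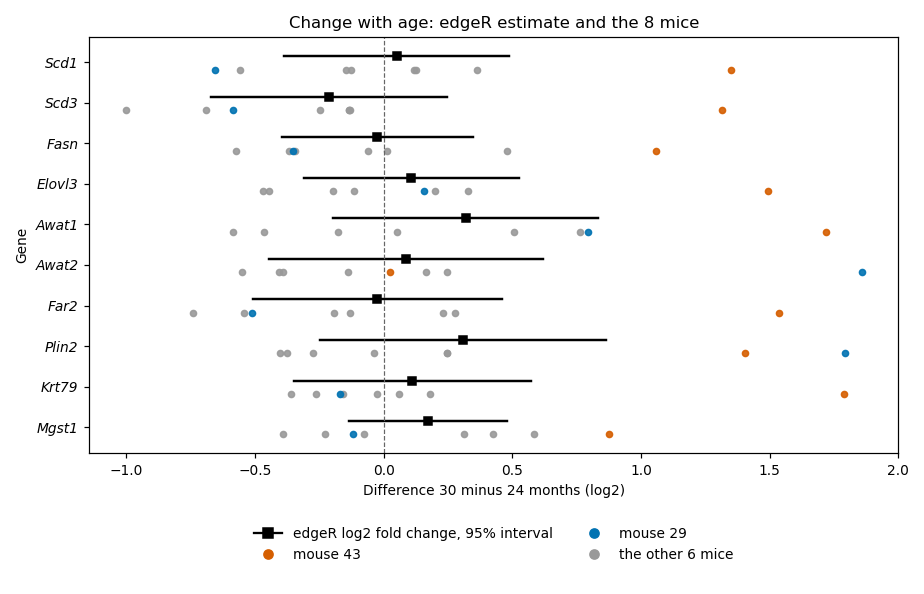
Difference between 30 and 24 months on the log2 scale. Black squares and lines are edgeR's estimate and a 95% interval computed from its test, and dots the within-mouse differences of log2 CPM. Each of the 10 intervals contains 0, and the differences of mouse 43 lie above those of the other mice for 8 genes.

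The small average change covers wide differences between the libraries of an animal. Each age of a mouse is a single clip, so differences between clips and changes of the animal cannot be told apart. All 10 genes were higher at 30 months in mouse 43 and all 10 were lower in mouse 50. Of the other mice, 13 and 21 had 8 of 10 genes lower, 14 had 7 and 29 had 6, whereas 75 had 8 genes higher and 64 had 6. The mean change over the 10 genes was 1.26 in mouse 43, on the log2 scale, and between -0.42 and 0.22 in the other 7 mice. Over the 8 mice this mean change was 0.10 ± 0.52 (SD, n = 8). Without mouse 43 it was -0.065 ± 0.257 (SD, n = 7).

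The 24-month library of mouse 43 was the lowest of the 16 for each of the 10 genes, and their sum was 4169 CPM. At 30 months the same mouse had the highest sum, 10740 CPM, and the highest library for 5 genes: Scd1, Scd3, Fasn, Far2 and Krt79. The sums of the remaining 14 libraries ran from 5519 CPM in mouse 50 at 30 months to 9235 CPM in mouse 21 at 24 months. Scd1 makes up most of each sum, so the mean of log2 CPM, which weighs the genes equally, is used for the comparisons that follow. It was 6.79 in mouse 43 at 24 months, 7.25 to 8.00 in 14 libraries and 8.05 in mouse 43 at 30 months.

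Other markers moved with mouse 43 as well. Between its libraries the 12 other sebocyte markers went from 2854 to 4796 CPM, and the 8 genes of the upper follicle and sebaceous duct from 734 to 1584 CPM. Hair shaft and inner root sheath genes went from 21.9 CPM, the lowest of the 16 libraries, to 93.0 CPM, which is 4.25-fold and a wider step than that of the 10 genes (2.58-fold). The skeletal muscle genes summed to 12140 CPM at 24 months, the highest of the 16 libraries, and to 1413 CPM at 30 months. The 9 mitochondrially encoded genes took up 44020 CPM, also the highest, and then 21490 CPM. Basal keratinocyte genes changed less, from 11700 to 13130 CPM, as did differentiated keratinocyte genes, from 22010 to 21920 CPM. White fat cell genes summed to 727 and 316 CPM, which is the opposite direction to the 10 genes. The part of tissue make-up and RNA quality in the values of mouse 43 was not tested.

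Across all 16 libraries most of the 10 genes varied together, with Awat2 apart. Pearson's r of log2 CPM had a median of 0.642 over the 45 pairs of genes (-0.306 to 0.899), and exceeded 0.5 in 29 of them. The share of pairs above 0.5 over all genes tested was not computed. These are descriptions over 16 libraries that share animals in pairs and share composition. The closest pairs were Elovl3 and Awat1 (r = 0.899), Scd1 and Far2 (r = 0.882), Awat1 and Plin2 (r = 0.869) and Scd1 and Fasn (r = 0.846). Without mice 29 and 43, over 12 libraries, the median was 0.491 (-0.578 to 0.884), and 21 pairs exceeded 0.5.

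Awat2 stood outside this pattern. Its r with the mean of the other 9 genes was 0.181 (Spearman's rho -0.015), whereas the other 9 genes had an r of 0.577 (Scd3) to 0.951 (Elovl3). Its pairs with Scd1 (r = -0.306), Scd3 (r = -0.237), Fasn (r = -0.156) and Far2 (r = -0.14) were negative. Its highest values were with Plin2 (r = 0.783, and 0.021 without mice 29 and 43) and Awat1 (r = 0.454, and -0.196 without them). Without Awat2 the 36 remaining pairs had a median r of 0.692 and none below 0.236 over the 16 libraries. With mice 29 and 43 left out, Mgst1 had a negative r with Fasn (-0.156) and Scd3 (-0.128). Awat2 also had the fewest counts of the 10. Without mice 29 and 43 its r with the other 9 genes was -0.312. The same r rose for Plin2 (0.716 to 0.906), Far2 (0.753 to 0.904) and Scd1 (0.698 to 0.802). It fell for Krt79 (0.786 to 0.431), Fasn (0.652 to 0.478) and Mgst1 (0.625 to 0.461). Smaller falls were those of Awat1 (0.923 to 0.81), Scd3 (0.577 to 0.527) and Elovl3 (0.951 to 0.936).

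**Figure D3:**
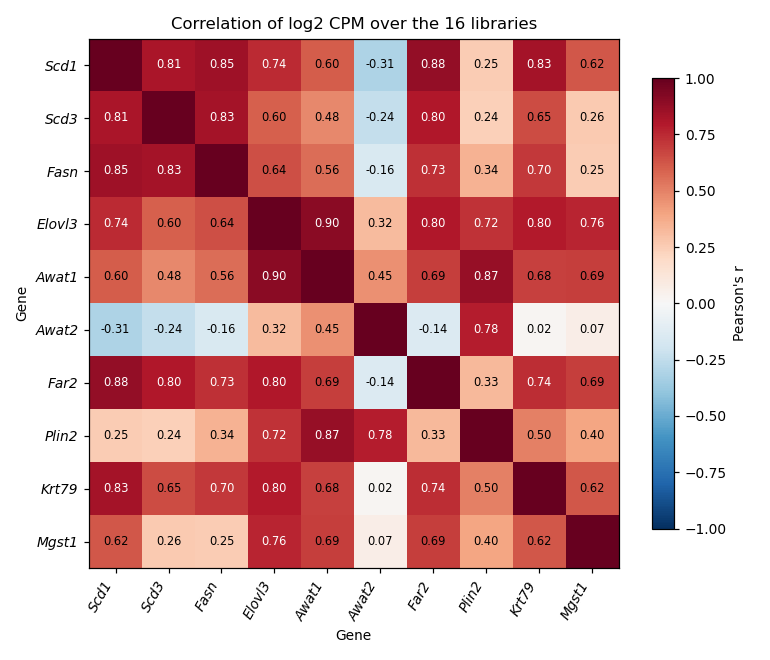
Pearson's r of log2 CPM over the 16 libraries for each pair of the 10 genes, from blue (-1) to red (1). Elovl3 and Awat1 reach 0.90, and the row of Awat2 falls to -0.31 with Scd1.

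The 12 sebocyte markers outside the 10 genes followed the same libraries. Their summed CPM, on the log2 scale, had an r of 0.939 with the mean of the 10 genes (0.927 without mice 29 and 43). Elovl4, Elovl6 (r = 0.548) and Acsbg1 (r = 0.528) weighed most in that sum. Among the 12 markers Cidea, a lipid droplet protein, had the closest likeness (r = 0.944). Elovl4, an elongase of very long chains, had the next (r = 0.91). Pparg had 0.83 and Mc5r 0.811. Dgat2, which makes triglycerides in many tissues, had the lowest (r = 0.263). Of the other lists, mitochondrially encoded genes had an r of -0.805 with the mean of the 10 genes (-0.454 without mice 29 and 43) and skeletal muscle genes -0.636 (-0.518 without them). The upper follicle and duct genes had 0.694 (0.259 without mice 29 and 43). Brown fat cell genes had 0.939, a list that holds Elovl3 itself and the sebocyte marker Cidea. Hair shaft and inner root sheath genes had 0.255 (0.049 without mice 29 and 43). Fibroblast genes had -0.482 (-0.575 without mice 29 and 43), white fat cell genes -0.134 (-0.398) and basal keratinocyte genes 0.126 (0.249). Differentiated keratinocyte genes had 0.172, and 0.639 without these mice. Cartilage genes had -0.18, and 0.793 without them. Macrophage genes had 0.036 (-0.26 without them) and cerumen or sweat gland genes 0.197 (0.196).

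**Figure D4:**
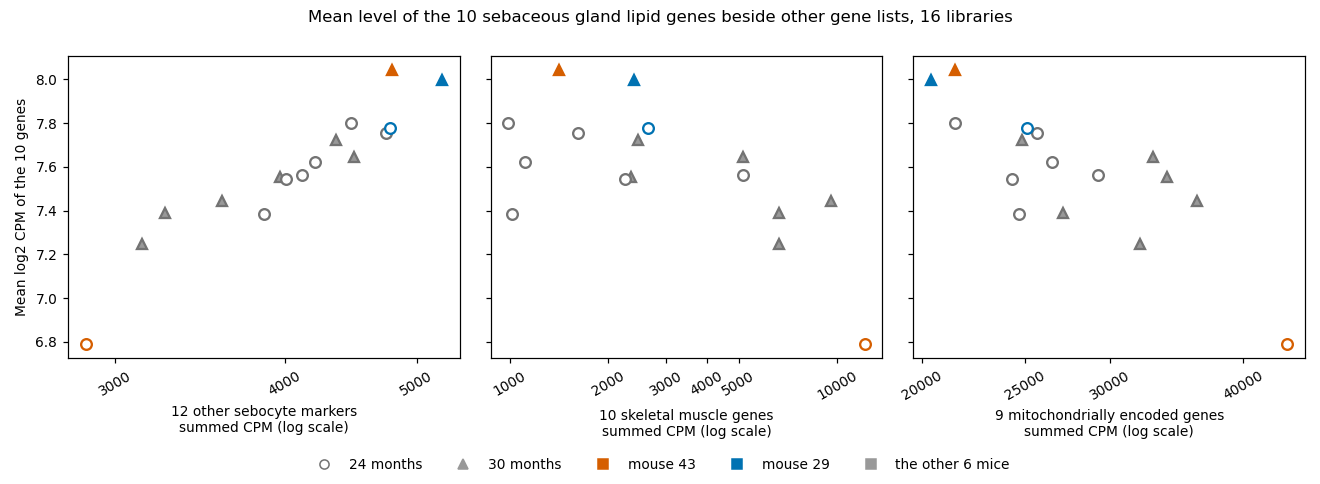
Mean log2 CPM of the 10 genes in the 16 libraries (vertical) against the summed CPM, on a log scale, of 12 other sebocyte markers, 10 skeletal muscle genes and 9 mitochondrially encoded genes. Open circles are 24 months and triangles 30 months, and mouse 43 at 24 months has the lowest mean (6.79) beside the highest muscle (12140 CPM) and mitochondrial sums (44020 CPM).

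The genes whose log2 CPM was most like the mean of the 10 over the 16 libraries were Sdr42e1 (r = 0.959), Pnpla5 (0.957), Cidea (0.944), Acp6 (0.941), Entpd5 (0.939), Cers4 (0.936), Rdh11 (0.934), Sec14l4 (0.928), Foxc1 (0.918) and Apmap (0.917). Pnpla5 is a lipase of the patatin family, Cers4 a ceramide synthase, Rdh11 a retinol dehydrogenase and Foxc1 a transcription factor. An r above 0.8 was reached by 110 of the 21516 other genes tested, or 0.511%, and the median r over these genes was -0.009. Each of the 10 most alike had its lowest library in mouse 43 at 24 months, from 18.3 CPM for Foxc1 to 249 CPM for Cers4. These genes were picked for likeness to a mean that is lowest in that library, so their low values there describe that choice. None of them passed the adjusted threshold for age, nor did any other gene tested. Their log2 fold changes ran from -0.031 (Cers4) to 0.14 (Sec14l4), which also goes with that choice. Ranked by the within-mouse changes of the 8 mice in place of the 16 libraries, 2 of these 10 genes were among the 10 most alike. All 10 still had a high r by those changes, from 0.943 (Rdh11) to 0.986 (Acp6).

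Other genes of lipid synthesis and of sebaceous gland control were read from the same fit. Of 93 such genes outside the 10, 90 were tested, 0 passed the adjusted threshold, 6 were higher and 4 lower at an unadjusted p under 0.05, and their median log2 fold change was 0.009. The count of 10 in 90 is close to the 12% of all genes tested. Acly, which supplies the carbon for fatty acid synthesis, had 236 to 435 CPM at 24 months and a log2 fold change of -0.24 ± 0.13 (SE, adjusted p = 0.493). Srebf1, the transcription factor that drives fatty acid synthesis, had 0.063 ± 0.096 (SE, adjusted p = 0.806). Elovl4 and Elovl6, elongases of very long and of shorter chains, had 0.066 and -0.14.

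Among the enzymes that store lipid, Dgat2 had a log2 fold change of -0.24 ± 0.08 (SE, adjusted p = 0.325), was lower in 7 of 8 mice and had an unadjusted p of 0.0160. Soat1, which makes sterol esters, had 0.10 ± 0.20. The fatty acid activating genes Acsbg1 and Slc27a4 had -0.068 and -0.021, the droplet gene Cidea had 0.14, and the regulators Rxra and Cebpa had -0.084 and 0.070. The genes with the highest unadjusted change upward were Soat2 (log2 fold change 0.73, SE 0.24, unadjusted p = 0.0108, adjusted p = 0.302, up to 3.72 CPM in mouse 50 at 30 months), Hilpda (0.475), Plin4 (0.47) and Myc (0.37). Nr1h2, a receptor for oxysterols, was higher in 8 of 8 mice with 0.18 and Cebpb in 7 with 0.24. Those with the lower values were Oxsm (-0.22), Acsl1 (-0.22) and Abhd5 (-0.195), which activates the lipase of fat droplets. These were named because they passed the unadjusted threshold.

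The 30-month library of mouse 29 differed from that of mouse 43. Its mean log2 CPM over the 10 genes was second highest of 16, but its sum of 6424 CPM ranked 5 from the lowest, since within the mouse the log2 change of Scd1 (3776 CPM) was -0.65 while that of Awat2 was 1.86 and that of Plin2 1.79. Elovl3 (264 CPM) and Awat1 (120.3 CPM) were also highest of the 16 there, 1.01- and 1.17-fold above the next. Scd1, Scd3, Fasn, Far2, Krt79 and Mgst1 lay within the range of the other 15 libraries. The 12 white fat cell genes summed to 1483 CPM in that library and to 316 to 737.5 CPM in the other 15. Of the 12, 8 were highest there among the 16 libraries (Plin1, Plin4, Cidec, Fabp4, Cfd, Adig, Lpl and Lipe), with Fabp4 at 528.5 CPM, whereas Adipoq had 53.9 CPM, inside the range of 11.5 to 76.9, and Lep had 1.66 CPM, its lowest. Genes of the duct and upper follicle were also highest in that library, at 2125 CPM. Mitochondrially encoded genes (20410 CPM) and fibroblast genes (2626 CPM) were at their lowest of the 16 there. The part of these other cell types and of RNA quality in the values of Plin2 and Awat2 was not tested.

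**Figure D5:**
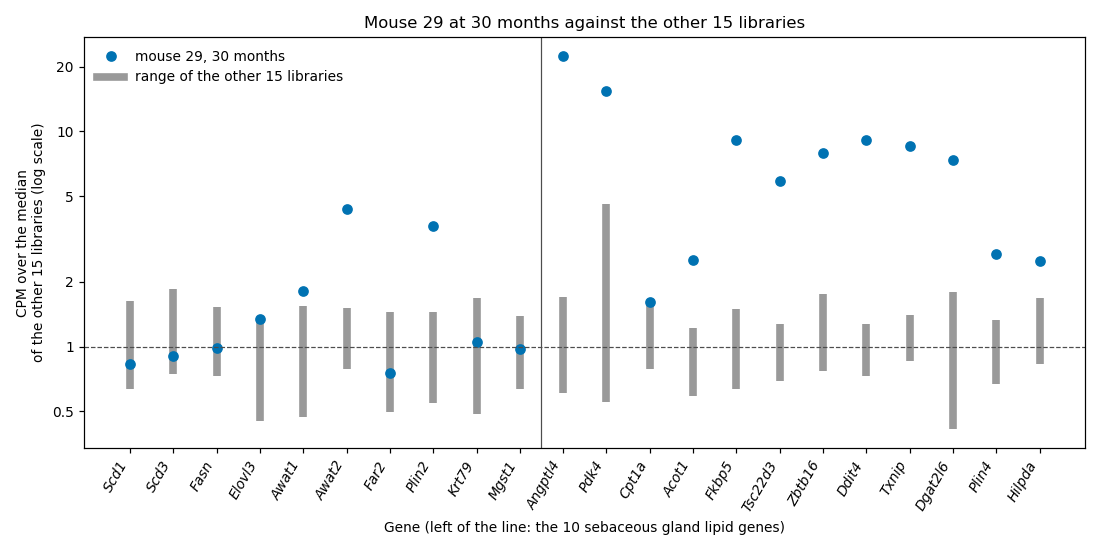
CPM in the 30-month library of mouse 29 over the median of the other 15 libraries (dots, log scale), with the range of those 15 as grey bars. Left of the line are the 10 genes, of which Awat2 (4.37) and Plin2 (3.63) stand highest, and right of it are 12 genes picked after their values had been seen, among them Angptl4 (22.4) and Pdk4 (15.4).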

How the data were processed

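Ear skin RNA of 16 libraries was analysed, 2 for each of 8 mice. The authors aligned single-end reads of 50 bases to the mouse genome GRCm38 with TopHat, counted them per Ensembl gene and deposited the counts without normalization, with replicates kept apart. The submitters' processing notes list CASAVA 1.8.4, TopHat2 2.1.0 and HTSeq 0.6.1p1 with mm10. Whether counting used strand is not given in the sources used here. Of the reads listed for a library in the deposited counts, 18.7% to 21.1% stood on lines that name no gene and were left out. Of the 5 such lines, 3 were 0 throughout, so the share covers only listed reads.

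Libraries were assigned to mouse and age by their labels. Symbols, positions and merged exon lengths came from GENCODE M21. The test was that of edgeR 4.0.16 in R 4.3.3 (TMM, filterByExpr, quasi-likelihood, a term for each mouse) at an adjusted p of 0.05, Benjamini-Hochberg over 21526 genes. The pairing rests on the animal, although libraries of a mouse did not deviate together from their age means (median correlation -0.0229, from -0.429 to 0.321, beside -0.0054 between mice). Log2 CPM used a prior count of 2. Descriptions were computed in Python 3.11.15 with pandas 2.3.3 and drawn with matplotlib 3.10.9.

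Counts were simulated for 21526 genes of this comparison. Of 100 genes changed by 1 on the log2 scale edgeR called 70, and of 100 changed by 2 it called 94. Each had its true sign, and 8 of the unchanged genes were also called. The simulated counts had no differences between mice and no library that stood apart, unlike the data, so these shares need not hold for the data.

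The 10 genes and all lists were chosen with earlier results of these data known. All 10 are named, as are the 2 genes of each pathway list with the highest mean CPM, the 10 genes most like the 10, and the pathway genes past the unadjusted threshold, which were named after their values were seen. Alternatives were DESeq2 1.42.0 size factors and Wald test, no filter on low counts, no replicate block, age in months as a covariate, likeness by within-mouse changes, each mouse left out in turn, and, chosen after seeing the data, mice 29 and 43 left out together. A further gene looked at beside them is not reported here.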

Additional observations from a re-analysis of the deposited data

Results flagged for a closer look

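Each of the 10 genes, and their mean, was examined at 24 months, at 30 months and as the within-mouse change, 33 sets of 8 mice in all. In 14 sets the highest or lowest mouse lay so far from the nearest other mouse that the gap exceeded 0.526 of the whole range, Dixon's 95% value for 8. Chance alone gives about 1 in 20, or 1.65 sets, for independent genes, which these are not.

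In mouse 43 the low values at 24 months stood apart for Elovl3 (88.8 CPM beside 157 to 260 in the other mice), Far2 (265 CPM beside 418 to 619), Plin2 (70.1 CPM beside 108 to 152) and Krt79 (287 CPM beside 531 to 738), and the mean log2 CPM of the 10 genes was 6.79 beside 7.38 to 7.80. At 30 months Scd3 was at 66.5 CPM in mouse 43 beside 27.3 to 40.3. The change within mouse 43 stood apart for Scd3 (1.32 on the log2 scale beside -1.0 to -0.13), Elovl3 (1.49 beside -0.47 to 0.33), Far2 (1.54 beside -0.74 to 0.28) and Krt79 (1.79 beside -0.36 to 0.18), and for the mean of the 10 genes (1.26 beside -0.42 to 0.22).

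In mouse 29 at 30 months Awat2 was at 21.9 CPM beside 4.02 to 5.61 in the others and Plin2 at 465 CPM beside 104 to 185. The change of Awat2 in mouse 29 was 1.86 on the log2 scale beside -0.55 to 0.25.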

How the results depend on the processing

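Of 140 values of the 10 genes under alternatives, 122 kept their direction and their side of the threshold and 18 turned direction. None of the 10 passed the adjusted threshold under any of them, and the lowest adjusted p was 0.163 (Scd3 without mouse 43). Without mice 29 and 43 the log2 fold changes of Scd1 (-0.029), Elovl3 (-0.11), Awat2 (-0.18), Plin2 (-0.091) and Krt79 (-0.086) turned negative. Leaving out 1 mouse gave -0.12 to 0.16 for Scd1, -0.17 to 0.064 for Fasn, -0.072 to 0.20 for Elovl3, -0.15 to 0.195 for Awat2, -0.225 to 0.090 for Far2, -0.099 to 0.19 for Krt79, -0.41 to -0.091 for Scd3, 0.13 to 0.46 for Awat1, 0.11 to 0.43 for Plin2 and 0.079 to 0.265 for Mgst1. Far2 had 0.012 with age as a covariate. The causes of these turns were not tested.

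DESeq2's Wald test called 77 genes higher and 151 lower at the adjusted threshold, where edgeR called 0. Without the replicate block the paired design was ignored and 2 genes were called higher and 1 lower. Genes past the unadjusted threshold numbered 1047 higher, 1708 without the replicate block, 1990 without mice 29 and 43 and 764 to 1927 with 1 mouse left out. Lower genes numbered 998 to 1845 with 1 mouse left out, with the lowest count without mouse 21, beside 1546. Of the 10 genes, 1 passed the unadjusted threshold without mice 29 and 43, where 1990 of all genes were higher and 1664 lower. With 1 mouse left out, 0 to 1 of the 10 passed. The 1 passed without mouse 43, where 1927 of all genes were higher and 1845 lower. The replicate block changed no call of the 10 genes. Awat2 had the fewest counts of the 10 (108 in its lowest library).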

Other observations

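Genes that stood apart in the 30-month library of mouse 29 together with Plin2 and Awat2 were picked after their values had been seen, so their height there is a description of that choice. Dgat2l6, an acyltransferase close in family to Awat2, had 201 CPM beside 11.3 to 48.9 CPM in the other 15 libraries. Angptl4, an inhibitor of lipoprotein lipase, had 76.8 CPM beside 2.08 to 5.80. Pdk4, a kinase that restrains pyruvate dehydrogenase, had 155.5 CPM beside 5.61 to 46.7. Cpt1a, which carries fatty acids into mitochondria, was hardly above the next library (164 CPM beside 79.6 to 158).

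Of the other genes picked, Fkbp5, a co-chaperone of steroid receptors, had 717 CPM beside 49.7 to 118, Tsc22d3 993.5 CPM beside 116 to 215 and Zbtb16 171.5 CPM beside 16.7 to 38.0. Ddit4 had 514 CPM beside 41.3 to 72.1, and Txnip 4037 CPM beside 404 to 661. The labels give nothing about feeding, handling or treatment of this mouse.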
